A study of Mus musculus with 8 samples.

Results

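The angiopoietin and Tie receptor genes Angpt1, Angpt2, Angpt4, Tek and Tie1 were taken by name from the GENCODE vM1 annotation of the mouse genome (mm9), as 5 of 22367 protein-coding genes, by a rule that uses no measured value. Their chromatin was read in subcutaneous isografts of Lewis lung carcinoma, a transplantable mouse tumor line, grown in C57BL/6J female mice of 6 to 8 weeks, with no drug treatment of the isografts named. LLC-NR isografts are sensitive to VEGF-Trap, a soluble decoy receptor that binds VEGF, and LLC-R isografts come from a line derived by repeated in vivo selection under VEGF-Trap. Chromatin was cut with micrococcal nuclease and precipitated with antibodies to H3K4me3, H3K9ac, H3K27me3 or H3K36me3, with 1 library for each line and mark and 8 libraries in all. Which mice entered each library is not given in the sources used here. LLC-R is a single selected line, so resistance and any other difference between the lines or libraries cannot be told apart.

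Angiopoietins are secreted ligands of Tie2, the receptor tyrosine kinase encoded by Tek on endothelial cells. Angpt1, made by pericytes and other perivascular cells, activates Tie2 and keeps vessels quiescent. Angpt2, released by activated endothelium, acts mostly as a context-dependent antagonist that loosens vessels and lets them sprout in the presence of VEGF. Angpt4 encodes a further ligand of Tie2, and Tie1 is an orphan co-receptor that pairs with Tie2 and modulates its signal. Because the pathway works beside VEGF in tumor vessels, it is a subject of interest in resistance to VEGF blockade. H3K4me3 and H3K9ac mark promoters of expressed genes, H3K27me3 is laid down by Polycomb over silent genes, and H3K36me3 is laid down over the bodies of transcribed genes.

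An isograft holds tumor cells together with vessels, stroma and immune cells of the host, and fewer cells of one type cannot be told apart from less of a mark per cell. The libraries held between 5660458 peaks (LLC-R H3K4me3) and 9101721 peaks (LLC-R H3K27me3), which covered 31.3% to 50.4% of the genome. Each peak is 147 bp wide, the length of DNA on a nucleosome, and carries a position but no height. Peaks of a library do not overlap, so the number in a promoter saturates, and no promoter held more than 9. LLC-R had 1.26 times the H3K27me3 peaks and 1.36 times the H3K36me3 peaks of LLC-NR, against 0.997 times for H3K4me3 and 0.919 times for H3K9ac. Without replicate libraries there is no test of any difference, and 95% intervals (exact binomial for a ratio, exact Poisson for a density) cover counting error only. They treat peaks as independent counts, which peaks that cannot overlap are not, so they are approximate.

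The 5 genes differ in size and setting. Angpt1 (ENSMUSG00000022309.8) lies on the minus strand at chr15:42256273-42508523, is 252.3 kb long, and shares 718 bp at its start with the antisense lincRNA Gm17473. Angpt2 (ENSMUSG00000031465.6) lies on the minus strand at chr8:18690263-18741562, is 51.3 kb long, and sits wholly inside Mcph1, a gene of the DNA damage response and brain size that runs on the plus strand at chr8:18595131-18803189. Of the exons of Mcph1, 1 falls in the Angpt2 interval, so most of that interval is Mcph1 intron. Angpt4 (ENSMUSG00000027460.6) covers 34.1 kb of the plus strand at chr2:151736943-151771073. The receptor gene Tek (ENSMUSG00000006386.9) covers 135.7 kb of the plus strand at chr4:94405980-94541667, and Tie1 (ENSMUSG00000033191.6), the shortest, covers 18.9 kb of the minus strand at chr4:118143796-118162666.

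CpG content sets the usual level of H3K4me3 at a promoter, and none of the 5 promoters is CpG-rich. By the class rule of the methods (500-bp intervals, G/C of 55% and CpG O/E of 0.6 and 0.4), Angpt1, Angpt2, Tek and Tie1 are intermediate promoters (ICPs) and Angpt4 is a CpG-poor promoter (LCP), whereas 53.9% of all promoters are CpG-rich (HCPs). The 200 bp directly upstream of the transcription start site (TSS) of Angpt1, Angpt4, Tek and Tie1 are shown because the H3K4me3 peaks over this stretch are compared next. They run 5′ to 3′ on the strand of the gene in mm9, with CpG dinucleotides in capitals.
Angpt1, chr15:42508524-42508723: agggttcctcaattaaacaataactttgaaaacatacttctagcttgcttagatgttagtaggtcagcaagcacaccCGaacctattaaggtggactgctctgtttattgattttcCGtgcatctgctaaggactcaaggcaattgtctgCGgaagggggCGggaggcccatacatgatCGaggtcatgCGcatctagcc
Angpt4, chr2:151736743-151736942: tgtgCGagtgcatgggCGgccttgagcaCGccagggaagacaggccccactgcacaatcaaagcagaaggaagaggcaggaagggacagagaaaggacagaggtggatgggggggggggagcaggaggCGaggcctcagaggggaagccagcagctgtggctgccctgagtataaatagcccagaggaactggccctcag
Tek, chr4:94405780-94405979: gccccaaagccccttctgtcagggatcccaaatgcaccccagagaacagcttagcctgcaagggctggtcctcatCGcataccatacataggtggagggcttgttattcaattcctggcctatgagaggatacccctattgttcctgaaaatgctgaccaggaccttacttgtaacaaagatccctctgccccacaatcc
Tie1, chr4:118162667-118162866: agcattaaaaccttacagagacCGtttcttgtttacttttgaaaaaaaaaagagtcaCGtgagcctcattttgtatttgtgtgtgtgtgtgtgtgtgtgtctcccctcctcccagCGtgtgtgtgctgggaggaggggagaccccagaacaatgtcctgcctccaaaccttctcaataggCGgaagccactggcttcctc

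The upstream stretch of Tek holds 1 CpG, those of Angpt4 and Tie1 hold 4 each, and that of Angpt1 holds 6, beside a median of 7 over all promoters. At least as many CpGs as in Tek were found in 90.4% of all promoters. The core motif of ETS factors, GGAA, counted on both strands, occurs 5 times in Angpt4, a number reached by 9.77% of all promoters. It occurs 3 times in Angpt1, which 40.3% of promoters reach, and 2 times in Tek and in Tie1, which 65.3% reach. Angpt4 alone of these 4 has a TATAAA on either strand, with its first base 30 bp upstream of the start site, and 10.1% of all promoters have one. These matches are letters in a window and carry no measurement of binding.

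The bases of the 200-bp upstream stretch that lie under an H3K4me3 peak numbered 24 of 200 in LLC-NR for Tek and 111 in LLC-R. For Tie1 they numbered 51 and 147, and for Angpt2 47 and 193. The upstream stretch of Angpt1 had none in LLC-NR but 24 in LLC-R, and Angpt4 had 0 in both lines. More bases were thus covered in LLC-R in 4 of 5 genes, as was the case for 39.2% of all promoters, and fewer were covered in 46.2% of all promoters. A single peak covers up to 147 bp, so each of these differences rests on the place of 1 or 2 peaks.

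The promoter, from 1 kb before to 0.5 kb after the start site, was then compared between the lines by its number of peaks. In LLC-R, H3K4me3 was lower by 2 peaks on the promoters of Angpt4 and Tie1 and higher by 2 on that of Tek. H3K9ac was higher by 2 only at Tie1 and H3K27me3 only at Angpt2, whereas H3K36me3 was higher by 3 at Angpt1, Angpt4, Tek and Tie1. The H3K36me3 and H3K27me3 libraries of LLC-R came from 2.32 and 2.14 times the reads of LLC-NR, and per read these 5 differences turned negative. A difference of 2 peaks was reached by 9 of 20 pairs of gene and mark, and by 2 of 20 once the LLC-R number was scaled to the peaks of the LLC-NR library. Shares of all promoters are given below for the unscaled numbers only. The 95% interval of the scaled log2 ratio included 0 for all 20 pairs of gene and mark. With 2 to 7 peaks in these promoters the intervals were wide, as from -4.46 to 1.81 for H3K4me3 at Tie1. They could hardly have excluded 0, so nothing is concluded from this.

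Among the ligands, Angpt1 went from 3 H3K4me3 peaks in LLC-NR to 4 in LLC-R. It had 5 and 6 H3K9ac peaks, 5 and 6 H3K27me3 peaks, and 3 and 6 H3K36me3 peaks. All 4 marks were therefore higher in number in LLC-R. Angpt2 had 5 and 4 H3K4me3 peaks, 6 and 5 H3K9ac peaks, 4 and 6 H3K27me3 peaks, and 5 in each line for H3K36me3. Both active marks were thus lower by 1 peak and H3K27me3 higher by 2. Angpt4 had 5 and 3 H3K4me3 peaks, 6 and 5 H3K9ac peaks, 5 and 6 H3K27me3 peaks, and 3 and 6 H3K36me3 peaks. Its active marks and H3K27me3 differed in the same directions as those of Angpt2.

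Among the receptors, Tek went from 3 H3K4me3 peaks in LLC-NR to 5 in LLC-R. It had 6 and 5 H3K9ac peaks, 6 and 7 H3K27me3 peaks, and 4 and 7 H3K36me3 peaks. Tie1 had 4 and 2 H3K4me3 peaks, 4 and 6 H3K9ac peaks, 7 in each line for H3K27me3, and 3 and 6 H3K36me3 peaks. At these starts, the most upstream of each gene, the receptors thus moved in opposite ways for both active marks. Tie1 held the most H3K27me3 of the 5 in LLC-NR, at the 92.4 percentile of all promoters of that library and the 84.1 percentile in LLC-R. Its H3K4me3 stood at the 29.9 percentile in LLC-NR and the 10.9 percentile in LLC-R.

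**Figure D1:**
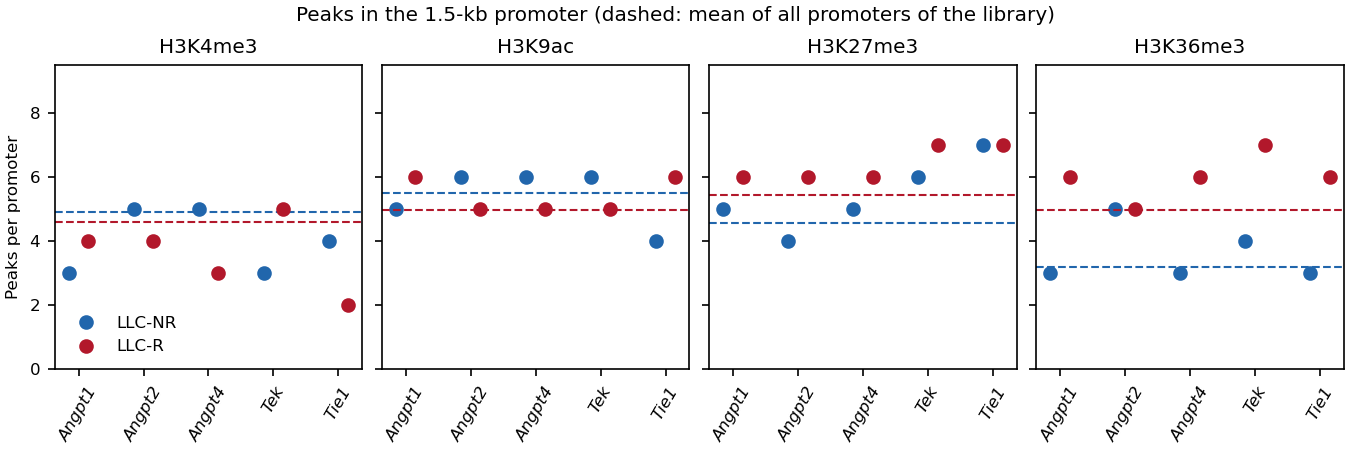
Number of peaks in the promoter of each gene (vertical axis) in LLC-NR and LLC-R, 1 panel per mark, with 1 library per point and the mean over all 22367 promoters of that library as a broken line. Tek and Tie1 differ in opposite directions for H3K4me3 (3 to 5 and 4 to 2), and H3K36me3 is higher by 3 peaks in LLC-R at 4 of the 5 genes.

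Over all promoters, H3K4me3 was lower by 2 or more peaks in LLC-R at 18.4% and higher at 9.01%, beside 2 and 1 of the 5 genes. H3K9ac was lower at 22.1% and higher at 5.40% of all promoters, beside 0 and 1 (Tie1) of the 5. H3K27me3 was lower at 3.47% and higher at 32.0% of all promoters, beside 0 and 1 (Angpt2). H3K36me3 was lower at 1.11% and higher at 56.0% of all promoters, beside 0 and 4. The higher H3K36me3 of these promoters was therefore shared with most promoters of that pair of libraries, with a median of 3 peaks over the 5 genes and 2 over all promoters. The median difference was -1 against 0 for H3K4me3, and it was -1 for H3K9ac and 1 for H3K27me3 both over the 5 genes and over all promoters. H3K4me3 on the 5 promoters (3 to 5 peaks in LLC-NR and 2 to 5 in LLC-R) lay around the means of their CpG classes, which were 4.06 and 3.87 for ICPs and 3.28 and 3.18 for LCPs.

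Alternative start sites, each with 1 transcript like the main start, carried other numbers. At the Tek start 229 bp into the gene, H3K4me3 went from 4 to 5 peaks, and H3K9ac had 4 in each line. At the Tie1 starts 268 and 306 bp into the gene, H3K4me3 went from 4 to 3 peaks and H3K9ac from 4 to 6. The contrast between the receptors thus depended on the start used. The start of a short Tek transcript 65554 bp into the gene went from 4 H3K4me3 peaks in LLC-NR to 3 in LLC-R, the opposite direction to the main start, with 6 and 7 H3K27me3 peaks. The second start of Angpt2, 42015 bp into the gene, had 4 and 5 H3K4me3 peaks, 7 in each line for H3K9ac, and 2 and 5 H3K27me3 peaks. H3K27me3 was thus higher in LLC-R at both starts of Angpt2.

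The files give positions, so it could be asked whether the peaks of both lines lie in the same places. At Tek, the H3K4me3 peak centers lay at -704, -361 and 49 bp from the start site in LLC-NR and at -771, -530, -38, 217 and 418 bp in LLC-R. None lay within 30 bp of a peak of the other line. At Tie1, they lay at -441, -223, 109 and 315 bp in LLC-NR and at -125 and 141 bp in LLC-R, again with none shared. The 6 H3K9ac peaks of Tie1 in LLC-R also shared no position with the 4 in LLC-NR, while 3 of its 7 H3K27me3 peaks were shared. At Angpt2, H3K4me3 peaks were shared at -227 and -228 bp and at 119 and 112 bp, and LLC-R had a further peak at -78 bp, inside its 200-bp upstream stretch. H3K9ac was shared at 4 positions of Angpt2. Upstream of Tie1, no peak of any of the 8 libraries had its center from 2 kb before the start site up to the first one at -1043 bp, so its promoter borders a stretch without peaks.

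Over the 5 promoters, 4 of 20 H3K4me3 peaks of LLC-NR (20%, exact interval 5.73% to 43.7%) lay within 30 bp of a peak of LLC-R, beside 43.9% over all promoters, 32.8% over ICPs and 26.7% over LCPs. In the other direction the share was 4 of 18 (22.2%, 6.41% to 47.6%), beside 46.8%, 34.4% and 27.5%. The intervals hold the shares of the classes to which the genes belong. For H3K9ac the share was 11 of 27 (40.7%) both ways, beside 46.1% and 51.2% over all promoters. For H3K27me3 it was 37.0% of LLC-NR peaks and 31.3% of LLC-R peaks, beside 43.2% and 36.1%, and for H3K36me3 it was 50% and 30%, beside 41.3% and 26.7%.

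The study sorts promoters into states with the mean over all promoters of a library as threshold. Where either active mark (H3K4me3 or H3K9ac) reaches that mean the promoter is active, where H3K27me3 reaches it the promoter is repressive, and where both hold it is bivalent. The study took normalized tag counts for this, whereas numbers of peaks, which saturate, were used here. The states given here need not be those of the study. In LLC-NR, Angpt2 was active, Angpt4 and Tek were bivalent, and Angpt1 and Tie1 were repressive. In LLC-R, all 5 were bivalent. The state thus differed at 3 of 5 genes, beside 37.9% of all promoters, and bivalent was the most common state of both lines, at 48.4% and 53.1% of all promoters. Peaks sit 1 step from the threshold in several cases: the H3K9ac of Angpt1 went from 5 to 6 while the mean went from 5.51 to 4.97. With the promoter drawn to 1 kb after the start site, Angpt2, Angpt4 and Tek were repressive in LLC-R, Angpt1 was bivalent in both lines, and 4 of 5 states differed. No share of all promoters is given for that setting, so whether 4 of 5 is unusual cannot be told. The methods also state a rule with 2 times the mean for the active marks. Applied to numbers of peaks, it could call no promoter active or bivalent. The largest number in any promoter, 9, is below 2 times the mean in all 4 libraries of the active marks. This does not bear on that rule as applied to tag counts.

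The bodies of the genes hold many more peaks and give narrower intervals. H3K27me3 over Angpt2 was higher in LLC-R, H3K4me3 over Angpt1 was lower, and H3K27me3 over Tek was lower relative to the other genes, and these 3 were the pairs of gene and mark out of 20 whose interval excluded 0. Ratios were scaled by the peaks of each library. Scaled instead by uniquely mapped reads, which differ more between the libraries, the ratio of Angpt2 for H3K27me3 turned to -0.26 and that of Angpt1 for H3K4me3 to 0.03. The ratio of Tek for H3K27me3 was then -0.96. Scaling by reads shifts every H3K27me3 log2 ratio by -0.77, so the sign at Tek could not have turned and nothing is concluded from it. Scaled by library peaks, the median log2 ratio of LLC-R to LLC-NR over all genes of 10 kb or longer was 0.0045 for H3K4me3, -0.0067 for H3K9ac, 0.12 for H3K27me3 and -0.15 for H3K36me3. Set against these medians instead of 0, the intervals of 5 pairs excluded the median. They were Angpt1 for H3K4me3, H3K27me3 and H3K36me3, Angpt2 for H3K27me3 and Tek for H3K27me3. Neither count was taken over all genes of 10 kb or longer. Whether 3 or 5 of 20 is unusual was thus not tested.

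Angpt2 held 107 H3K27me3 peaks in LLC-NR (2.09 per kb, 1.71 to 2.52) and 192 in LLC-R (3.74 per kb, 3.23 to 4.31). The scaled log2 ratio was 0.51 (0.17 to 0.87), higher than in 89.3% of genes, and in 5 equal parts of the gene the density ran from 1.46 to 2.53 per kb in LLC-NR and from 3.41 to 3.90 per kb in LLC-R. In LLC-NR, Angpt2 had the lowest H3K27me3 density of the 5, and its interval overlapped none of the other 4, which ran from 2.97 per kb (2.76 to 3.19) at Angpt1 to 3.82 per kb (2.99 to 4.80) at Tie1. In LLC-R, the densities of the 5 genes ran from 3.58 to 4.13 per kb and all their intervals overlapped. The other marks of Angpt2 were less far apart: 138 and 123 H3K4me3 peaks (log2 ratio -0.16, -0.52 to 0.20), 226 and 200 H3K9ac peaks (-0.05, -0.34 to 0.23), and 183 and 216 H3K36me3 peaks (-0.20, -0.50 to 0.09).

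The value of Angpt2 was shared with its host gene. The 156.8 kb of Mcph1 outside Angpt2 held 324 H3K27me3 peaks in LLC-NR (2.07 per kb) and 567 in LLC-R (3.62 per kb), a scaled log2 ratio of 0.48 (0.28 to 0.68). Its H3K36me3 went from 578 to 661 peaks (-0.25, -0.41 to -0.09). The 1 Mb around Angpt2, without the gene, had a log2 ratio of 0.01 for H3K27me3, so the wider region did not share the difference. In 10-kb bins beyond the 5′ end of Mcph1, LLC-NR reached 4.2 H3K27me3 peaks per kb, above the 1.7 to 2.5 per kb of the bins within Angpt2. Reads from Angpt2 and from the Mcph1 intron around it are the same DNA, so the marks of both genes cannot be told apart. H3K36me3 over Angpt2 was the highest of the 5 in both lines, at 3.57 per kb (3.07 to 4.12) and 4.21 per kb (3.67 to 4.81), and in LLC-NR its interval overlapped only that of Tie1.

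**Figure D2:**
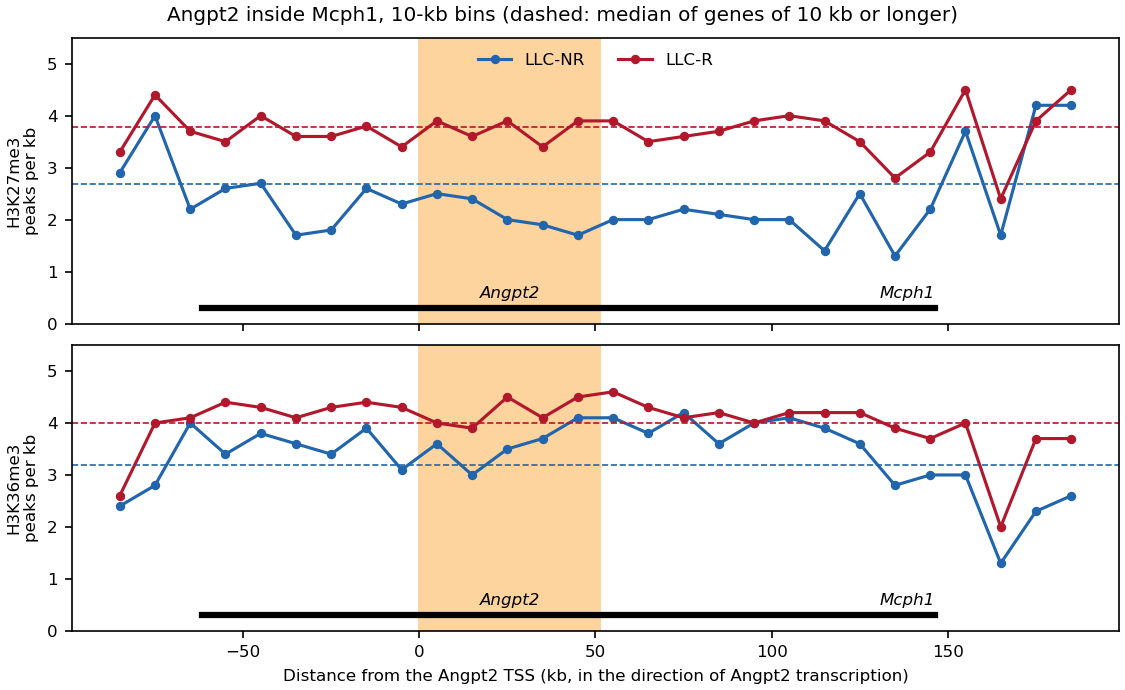
H3K27me3 and H3K36me3 peaks per kb in 10-kb bins (vertical axis) along the region of Angpt2 and its host gene Mcph1 (horizontal axis, kb from the Angpt2 start site, positive in the direction of Angpt2 transcription), 1 library per line. Within Angpt2, H3K27me3 lies between 1.7 and 2.5 per kb in LLC-NR and between 3.4 and 3.9 per kb in LLC-R, and the gap runs on through Mcph1.

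Angpt1, the agonist, had H3K4me3 at 534 positions of LLC-NR (2.12 per kb, 1.94 to 2.30) and 452 in LLC-R (1.79 per kb, 1.63 to 1.96), a scaled log2 ratio of -0.24 (-0.42 to -0.05). The 1 Mb around the gene, without it, had a log2 ratio of -0.17 and the whole of chromosome 15 one of -0.07, so a lower H3K4me3 density was also seen around Angpt1. Its H3K27me3 went from 749 to 902 peaks (-0.06, -0.20 to 0.08), below the median of all genes. Its H3K36me3 went from 610 to 838 peaks (0.01, -0.14 to 0.17), above the median of all genes, and its H3K9ac from 877 to 754 (-0.10, -0.24 to 0.05). The H3K4me3, H3K9ac and H3K36me3 of Angpt1 all stood low in each library, at the 16.5, 14.9 and 18.3 percentile of genes in LLC-NR. In LLC-R they stood at the 7.04, 11.1 and 10.2 percentile. Its H3K27me3 stood at the 59.5 percentile in LLC-NR and the 28.7 percentile in LLC-R.

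Angpt4 held 71 H3K4me3 peaks in each line. It had 140 and 127 H3K9ac peaks (-0.02, -0.38 to 0.34), 128 and 138 H3K27me3 peaks (-0.22, -0.58 to 0.14), and 84 and 127 H3K36me3 peaks (0.15, -0.26 to 0.57). None of these intervals excluded 0 or the median of all genes.

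Tek held 448 H3K27me3 peaks in LLC-NR (3.30 per kb, 3.003 to 3.62) and 494 in LLC-R (3.64 per kb, 3.33 to 3.98), a scaled log2 ratio of -0.19 (-0.38 to -0.00041). The number was higher in LLC-R, and the ratio is negative because the LLC-R library as a whole had more peaks. The 1 Mb around Tek, without it, had a log2 ratio of 0.08. H3K4me3 went from 311 to 270 peaks (-0.20, -0.44 to 0.04), H3K9ac from 451 to 411 (-0.01, -0.21 to 0.18) and H3K36me3 from 336 to 444 (-0.04, -0.25 to 0.17). Of 5 equal parts of Tek, the one at the 5′ end carried the most H3K27me3 in both lines, 3.98 and 4.31 per kb, and the middle one the least, 2.32 and 2.65 per kb.

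Tek holds 4 stretches of over 2 kb with no peak of any of the 8 libraries. They take up 12.8% of the gene, the longest is 6593 bp, and 9.24 kb of them fall in the middle part of 27.1 kb. Angpt1 has 2 such stretches (3.60% of the gene) and the other 3 genes have none. With the stretches left out of every gene, an alternative chosen after the data were seen, the H3K27me3 of Tek stood at the 81.1 percentile of genes in LLC-NR and the 78.9 percentile in LLC-R, where the whole gene had stood at 67.7 and 35.2. Its H3K4me3 then stood at 45.4 and 19.3 in place of 25.4 and 11.0. The H3K27me3 rank of Tek in LLC-R thus moved with the treatment of these stretches, while the rank of its H3K4me3 was lower in the LLC-R library both ways, with counting intervals of the whole-gene rank (13.7 to 43.2 and 6.69 to 20.8) that overlapped.

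Tie1, the shortest of the 5, went from 44 H3K4me3 peaks to 52 (0.25, -0.36 to 0.86), and 75 and 77 H3K9ac peaks (0.16, -0.32 to 0.64). It was the one gene of the 5 with more peaks of both active marks in LLC-R over its body. H3K27me3 went from 72 to 78 peaks (-0.21, -0.69 to 0.27) and H3K36me3 from 54 to 68 (-0.11, -0.65 to 0.43). Its H3K9ac rank went from the 40.8 to the 93.8 percentile, but the counting intervals of the densities reach from the 8.80 to the 100 percentile in LLC-NR and from 16.6 to 100 in LLC-R. With intervals this wide, a difference was not resolved.

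**Figure D3:**
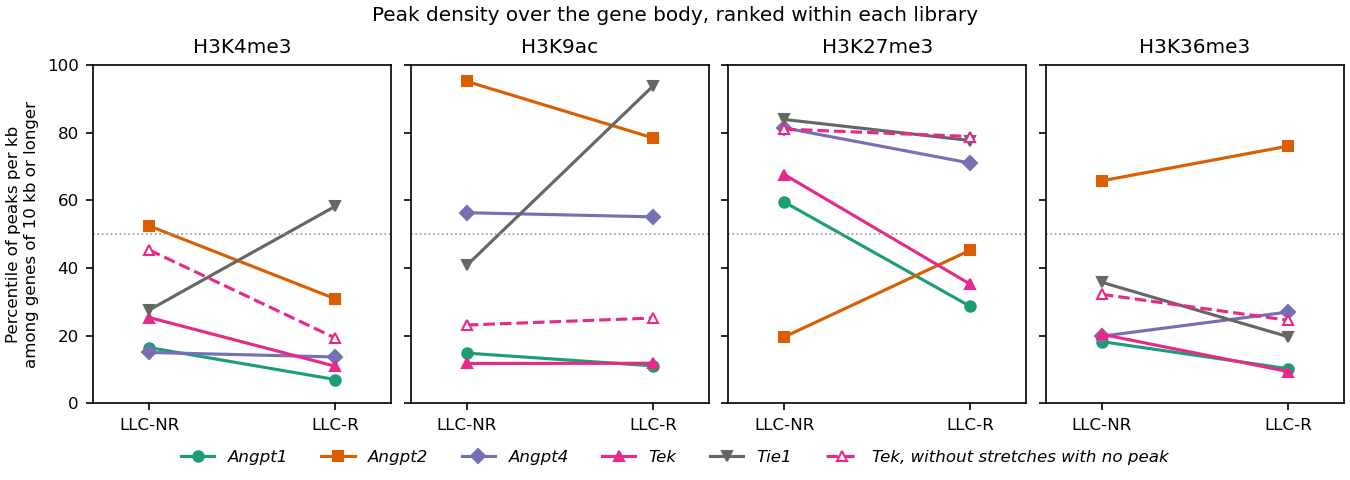
Percentile of the number of peaks per kb over the gene body (vertical axis) among genes of 10 kb or longer of the same library, in LLC-NR and LLC-R, 1 line per gene and 1 panel per mark, with no interval drawn. The broken line gives Tek without stretches that hold no peak, and it lies at 81.1 and 78.9 for H3K27me3 where the whole gene lies at 67.7 and 35.2.

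A ratio of 1.1-fold or more either way was used as the threshold for the body. H3K4me3 was lower by that much at 20.2% of genes and higher at 21.5%, beside 3 of the 5 genes (Angpt1, Angpt2 and Tek) and 1 (Tie1). H3K9ac was lower at 7.37% and higher at 4.36% of genes, beside 0 and 1 (Tie1). H3K27me3 was lower at 26.1% and higher at 48.3% of genes, beside 3 (Angpt4, Tek and Tie1) and 1 (Angpt2). H3K36me3 was lower at 51.1% and higher at 16.9% of genes, beside 1 (Angpt2) and 1 (Angpt4). The median log2 ratio of the 5 genes was -0.16 for H3K4me3, -0.02 for H3K9ac, -0.19 for H3K27me3 and -0.04 for H3K36me3. For H3K27me3, 4 of the 5 genes thus lay below the median of all genes, and Angpt2 above it. The LLC-R library of H3K27me3 is the largest, and the spread of the density over genes (SD of log2) went from 0.725 in LLC-NR to 0.631 in LLC-R. For H3K36me3 it was 0.712 and 0.654. The part of library size in the ratios of these genes was not tested.

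**Figure D4:**
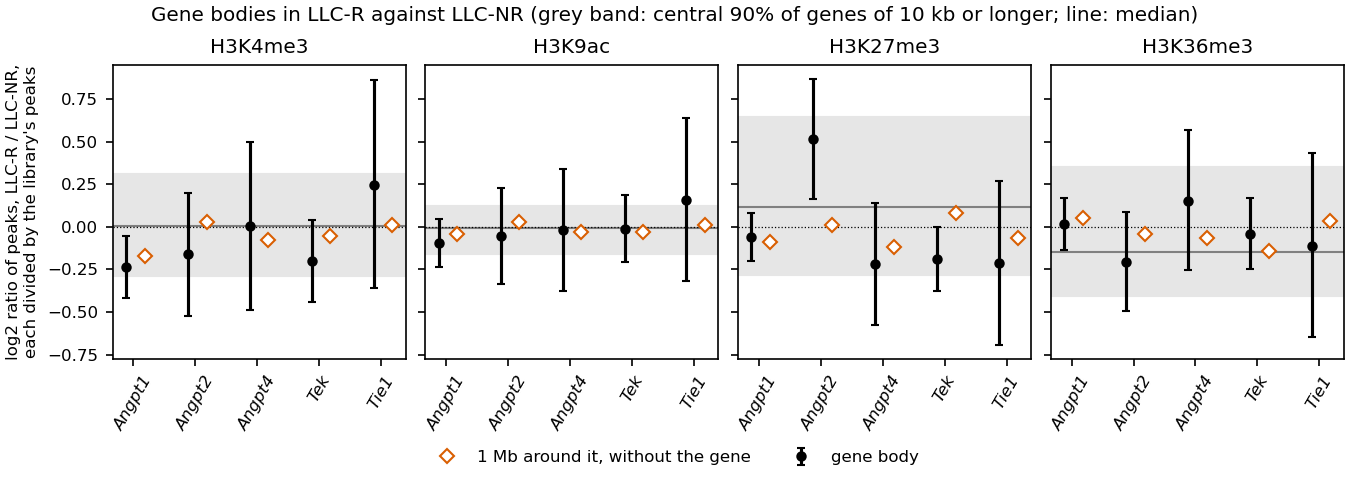
Log2 ratio of LLC-R to LLC-NR of peaks over the gene body, scaled by the peaks of each library (vertical axis), for the 5 genes in 4 marks. Points with bars are gene bodies with 95% intervals for counting error, diamonds are the 1 Mb around the gene without it, and the line and band give the median and central 90% of genes of 10 kb or longer. H3K27me3 of Angpt2 lies at 0.51 (-0.26 when scaled by reads) and that of the other 4 genes between -0.22 and -0.06.

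Among 15 other genes of Tie2 signaling, the promoter H3K4me3 was higher by 2 or more peaks in LLC-R at 2 and lower at 3, H3K9ac at 2 and 2, H3K27me3 at 2 and 0, and H3K36me3 at 12 and 0. The shares of all promoters were 9.01% and 18.4% for H3K4me3, 5.40% and 22.1% for H3K9ac, 32.0% and 3.47% for H3K27me3, and 56.0% and 1.11% for H3K36me3. Svep1, whose extracellular matrix protein binds Tie1, went from 3 to 5 H3K4me3 peaks, from 6 to 9 H3K9ac peaks and from 6 to 8 H3K27me3 peaks. Ptprb, the endothelial phosphatase VE-PTP that removes phosphate from Tie2, went from 3 to 5 H3K4me3 peaks, the same numbers as Tek, and from 6 to 5 H3K27me3 peaks. Pak1, a kinase of the cytoskeleton, went from 4 to 2 H3K4me3 peaks, the H3K9ac from 7 to 5. Pik3r1, the regulatory subunit of PI3-kinase, had 7 H3K4me3 peaks in each line and 5 and 7 H3K27me3 peaks.

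Of 5 angiopoietin-like genes, which encode related secreted proteins that act mainly through other receptors, H3K4me3 was higher by 2 or more peaks at 3 and lower at 0. H3K9ac was higher at 1 and lower at 2, H3K27me3 higher at 3 and lower at 1, and H3K36me3 higher at 3 and lower at 0. Of all promoters, 9.01% were higher and 18.4% lower for H3K4me3, 5.40% and 22.1% for H3K9ac, 32.0% and 3.47% for H3K27me3, and 56.0% and 1.11% for H3K36me3. Angptl6 went from 3 to 7 H3K27me3 peaks, Angptl7 from 2 to 5 and Angptl4 from 5 to 7, while Angptl1 went from 8 to 6. Angptl1 and Angptl7 each went from 3 to 5 H3K4me3 peaks and Angptl6 from 5 to 7.

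Markers of the cells in which the pathway acts were read in the same way. At 12 endothelial markers, the summed promoter peaks for H3K4me3 were 56 in LLC-NR against 54 in LLC-R. They were 69 and 63 for H3K9ac and 71 and 72 for H3K27me3. Cdh5, the endothelial cadherin, went from 5 to 3 H3K4me3 peaks and Cldn5, a tight junction protein, from 4 to 2, whereas Esam went from 5 to 7 and Robo4 from 4 to 6. At 6 pericyte markers the sums were 34 and 30 for H3K4me3, 38 and 34 for H3K9ac, and 36 and 41 for H3K27me3. At 7 leukocyte markers they were 32 and 26, 45 and 35, and 38 and 44, and the common leukocyte antigen Ptprc went from 7 to 4 H3K4me3 peaks. At 5 markers of carcinoma and epithelium they were 27 and 27, 32 and 26, and 25 and 32, and the keratin gene Krt18 went from 2 to 7 H3K27me3 peaks. H3K36me3 sums were higher in LLC-R in every list, as over all promoters. For the other marks, the mean difference of LLC-R from LLC-NR over all promoters was -0.31 peaks per promoter for H3K4me3, -0.54 for H3K9ac and 0.90 for H3K27me3. The sums are not corrected for these differences, so they are not read as changes of the markers.

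No marker was at 0 in both lines for any mark. The mean promoter held several peaks in every library, and the share of all promoters at 0 was not computed. The absence of a 0 therefore cannot show whether peak numbers separate carcinoma from host cells. The median H3K27me3 percentile of the gene body went from 80.2 in LLC-NR to 86.3 in LLC-R for endothelial markers, 89.6 and 91.0 for pericyte markers, 78.2 and 75.3 for leukocyte markers, and 96.3 and 92.9 for the 2 carcinoma markers of 10 kb or longer. Tie1 (84.0 in LLC-NR and 77.7 in LLC-R) stood within the range of these list medians. Angpt4 did so in LLC-NR (81.5) but not in LLC-R (71.1). Angpt2 (19.7 and 45.3), Tek (67.7 and 35.2) and Angpt1 (59.5 and 28.7) stood below the range in both lines. For Tek this held over its whole length. Without the stretches described above Tek stood at 81.1 and 78.9, but the list medians were taken over whole genes. These values of Tek are therefore not set against the range. The counting intervals of Tie1 and Angpt4 ran past both ends of the range in each line, as from 16.5 to 99.97 for Angpt4 in LLC-R. That of Angpt2 in LLC-R (10.3 to 91.1) reached into it. The place of Tie1 and Angpt4, and of Angpt2 in LLC-R, was therefore not resolved. The intervals of Tek and Angpt1 over the whole gene, and of Angpt2 in LLC-NR (7.13 to 42.7), lay below the range. The part of cell makeup in these values was not tested.

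Likeness of pattern was taken as the Euclidean distance between genes over the 8 libraries in log2 density of the gene body. The genes nearest to Tek were Hecw1 (0.0979), Nek5 (0.105) and Heatr7b2 (0.107). Those nearest to Angpt1 were Ugt1a10, Zfp616 and Cntln, those nearest to Angpt2 were 4933426M11Rik, Abl1 and Ncoa7, those nearest to Angpt4 were Clec4f, Clrn3 and Gprc6a, and those nearest to Tie1 were Gm10787, Cdk18 and Hemk1. Of the 5 genes, Tek and Angpt1 were the closest pair, at a distance of 0.258, and Tek ranked 64 among 13304 genes from Angpt1. Both densities include the stretches with no peak, 12.8% of Tek and 3.60% of Angpt1, and no distance without them is given. Angpt2 stood at least 1.02 from each of the other 4, farther than the median gene, at 0.798. The distance of a short gene such as Tie1 carries more counting error than that of a long one.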

How the data were processed

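ChIP-seq libraries of 4 histone marks in LLC-NR and LLC-R isografts were analysed, 1 per line and mark. Per the labels and methods, the authors aligned reads (Bowtie 0.12.7, mm9) and called peaks with GeneTrack, whose settings are not given in the sources used here. The deposited files list the start and end of peaks, with no height or count of reads, so numbers of peaks were used where summed occupancy had been the first choice, and depth per peak is unknown. No input library was used. A peak counted where its midpoint fell in a promoter or gene (GENCODE vM1, start site used by most transcripts, or the more upstream in a tie). Percentiles are mid-ranks among protein-coding genes of the library. Ratios were divided by the ratio of library peaks. Calls were a difference of 2 peaks (promoters) or 1.1-fold (bodies of 10 kb or longer). Of each list, the 4 genes with the largest summed promoter difference (H3K4me3, H3K9ac, H3K27me3) were named, and for likeness the 3 nearest genes. The upstream sequence of 1 gene and 1 listed gene are not reported here. Members and lists were chosen with earlier results of these data known. Counting was tested on simulated data (SciPy 1.17.1, NumPy 2.4.6, Python 3.11.15, pandas 2.3.3, Matplotlib 3.10.9). Alternatives changed the region, the TSS, the overlap, the scaling and the thresholds.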

Additional observations from a re-analysis of the deposited data

How the results depend on the processing

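No paired analysis was possible because each line has 1 library per mark. Promoter pairs past 2 peaks numbered 9 of 20, and 2 after scaling by library peaks or by the promoter mean. Gene body pairs past 1.1-fold numbered 11, and 17 when scaled by uniquely mapped reads, which shifts every log2 ratio by 0.27 (H3K4me3), 0.68 (H3K9ac), -0.77 (H3K27me3) or -0.77 (H3K36me3). That scaling reversed the body ratios of Angpt1 (0.032), Angpt2 (0.11) and Tek (0.068) for H3K4me3, of Angpt2 for H3K27me3 (-0.26) and of Angpt4 for H3K36me3 (-0.62). It also reversed the promoter ratios of H3K36me3 at Angpt1 (-0.21), Angpt4 (-0.21), Tek (-0.41) and Tie1 (-0.21) and of H3K27me3 at Angpt2 (-0.51). A promoter of 2 kb upstream reversed Angpt1 H3K36me3 (-0.081) and Angpt2 H3K27me3 (-0.0072), and one of 1 kb downstream reversed Angpt4 H3K4me3 (0.0045). With 2 times the mean as threshold, which no promoter can reach for the active marks in numbers of peaks, 1 state differed in place of 3, through H3K27me3 alone. The share of all promoters whose state differed is given for the main setting only. Within 50 bp, the shared positions were 63.0% of LLC-R H3K9ac peaks, 63.0% of LLC-NR H3K27me3 peaks and 53.1% of LLC-R H3K27me3 peaks, beside 62.0%, 56.4% and 47.2% over all promoters, so that they lay above the shares of all promoters where they lay below them within 30 bp. The cause of the other shifts was not tested. No body pair past 1.1-fold changed direction under scaling by the 1 Mb around the gene, a start 0.5 kb downstream or overlap of 1 bp. Without other coding genes, Angpt2 could not be given a value.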
